A study of Mus musculus with 4 samples.

Results

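The genes Flt3, Kit and Csf1r were followed as a group of 3 receptor genes, taken by symbol from the feature lists of 4 single-cell libraries. They are 3 of the 31914 genes that either feature list holds, and all 3 were present in every library. The study is about how lymphoid tissue inducer (LTi) cells arise, innate lymphocytes known for starting lymph nodes before birth. Cells came from embryos of the mouse strain C57BL/6 at E14.5 and E13.5 (days of embryonic development), from the embryonic periphery and from the fetal liver, with 1 library for each. CD45+ cells were enriched on magnetic beads and live CD45+ F4/80- IL7Ra+ cells were sorted, so cells with the F4/80 antigen of macrophages and cells without the interleukin 7 receptor were removed as far as the sort went. The 10x Genomics 3′ kit was of version 2 for the periphery and of version 3 for the liver, so kit and tissue cannot be told apart. No genetic change or treatment is given for any group, and how many embryos were pooled is not given in the sources used here.

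Flt3, Kit and Csf1r encode class III receptor tyrosine kinases, cell surface proteins that pair up and phosphorylate themselves when a cytokine binds. FLT3, bound by FLT3 ligand, is known from multipotent and lymphoid progenitors and from dendritic cells. KIT, bound by stem cell factor, is known from blood stem cells, early progenitors, mast cells and innate lymphoid cells. CSF1R, bound by CSF1 and IL-34, is the receptor of monocytes, macrophages and their precursors. All 3 are widely used to tell progenitors of the blood apart.

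Positions are those of the GRCm38 build in the GENCODE M21 annotation. Flt3 (ENSMUSG00000042817) spans chr5:147330741-147400489 on the minus strand. Kit (ENSMUSG00000005672) spans chr5:75574916-75656722 on the plus strand. The bases just before the annotated starts of Flt3 and Kit are shown because the levels of both differed with stage and cell type. They come from RefSeq for GRCm38.p6, at chr5:147400490-147400739 on the minus strand for Flt3 (250 bases) and chr5:75574737-75574915 on the plus strand for Kit (179 bases), written 5′ to 3′ with a match to GAGGAAG in capitals.
Flt3: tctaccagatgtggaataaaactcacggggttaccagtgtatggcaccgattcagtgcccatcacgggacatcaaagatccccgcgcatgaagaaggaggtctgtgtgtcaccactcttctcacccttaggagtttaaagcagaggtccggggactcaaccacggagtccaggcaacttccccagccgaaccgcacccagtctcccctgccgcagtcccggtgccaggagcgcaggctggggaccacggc
Kit: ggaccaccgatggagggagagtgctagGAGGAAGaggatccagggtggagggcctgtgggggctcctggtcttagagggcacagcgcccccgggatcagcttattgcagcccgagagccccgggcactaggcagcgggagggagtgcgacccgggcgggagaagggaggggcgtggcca
Both strands were searched for GAGGAAG (a core bound by ETS factors such as PU.1), AGATAA (bound by factors such as GATA1), TGTGGT (RUNX), CANNTG (E-box) and AACNG (MYB), and overlaps between motifs were allowed. The Flt3 window held 1 CANNTG and 1 AACNG, which 66.0 and 74.1% of 27025 promoters also held in windows of that length. It held none of the other motifs, which 10.4 (GAGGAAG), 10.3 (AGATAA) and 14.2% (TGTGGT) of promoters held. The Kit window held 1 GAGGAAG, at position 28 from its first base, as did 7.03% of promoters in windows of that length. It held none of the others, held by 7.93 (AGATAA), 10.3 (TGTGGT), 55.3 (CANNTG) and 62.7% (AACNG) of promoters. A match describes the letters only.

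The libraries held 44599592 (E14.5 periphery), 53229734 (E13.5 periphery), 208229937 (E14.5 fetal liver) and 212034840 (E13.5 fetal liver) UMIs, each UMI standing for 1 captured RNA molecule. After filtering, 4325, 4166, 10892 and 9773 cells were kept, and their median depths were 8457, 11121, 15650 and 18193 UMIs a cell. Il7r, which encodes the receptor chain used for sorting, was at 397 and 213 CPM (UMIs of a gene over all UMIs of the kept cells, on the CPM scale) in E14.5 and E13.5 periphery, and at 188 and 151 CPM in E14.5 and E13.5 fetal liver. The stages of 1 tissue shared 33 barcodes in periphery and 29 in fetal liver. With 1 library per group no difference between groups has a replicate check, so no p-value is given. Intervals are 95% intervals that cover counting error only.

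Flt3 was lower at E14.5 than at E13.5 in both tissues, and lower in periphery than in fetal liver at both stages. It stood at 6.76 CPM (6.00 to 7.60) in E14.5 periphery and 37.2 CPM (35.6 to 38.9) in E13.5 periphery. In fetal liver it stood at 127 CPM (125 to 129) at E14.5 and 199 CPM (197 to 201) at E13.5. The 4 intervals did not overlap.

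Kit had another order. It stood at 32.9 CPM (31.2 to 34.7) in E14.5 periphery and 22.9 CPM (21.6 to 24.3) in E13.5 periphery. In fetal liver it stood at 20.3 CPM (19.7 to 21.01) at E14.5 and 35.2 CPM (34.4 to 36.1) at E13.5. The intervals of E14.5 periphery and E13.5 fetal liver, the highest of the 4 levels, overlapped, and those of the other libraries were apart.

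Csf1r (ENSMUSG00000024621) spans chr18:61100598-61132149 on the plus strand of GRCm38. It followed the order of Flt3. It stood at 8.05 CPM (7.22 to 8.96) in E14.5 periphery and 15.9 CPM (14.8 to 16.998) in E13.5 periphery. In fetal liver it stood at 25.3 CPM (24.6 to 26.1) at E14.5 and 65.2 CPM (64.0 to 66.3) at E13.5, with no overlap between any of the 4 intervals.

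**Figure D1:**
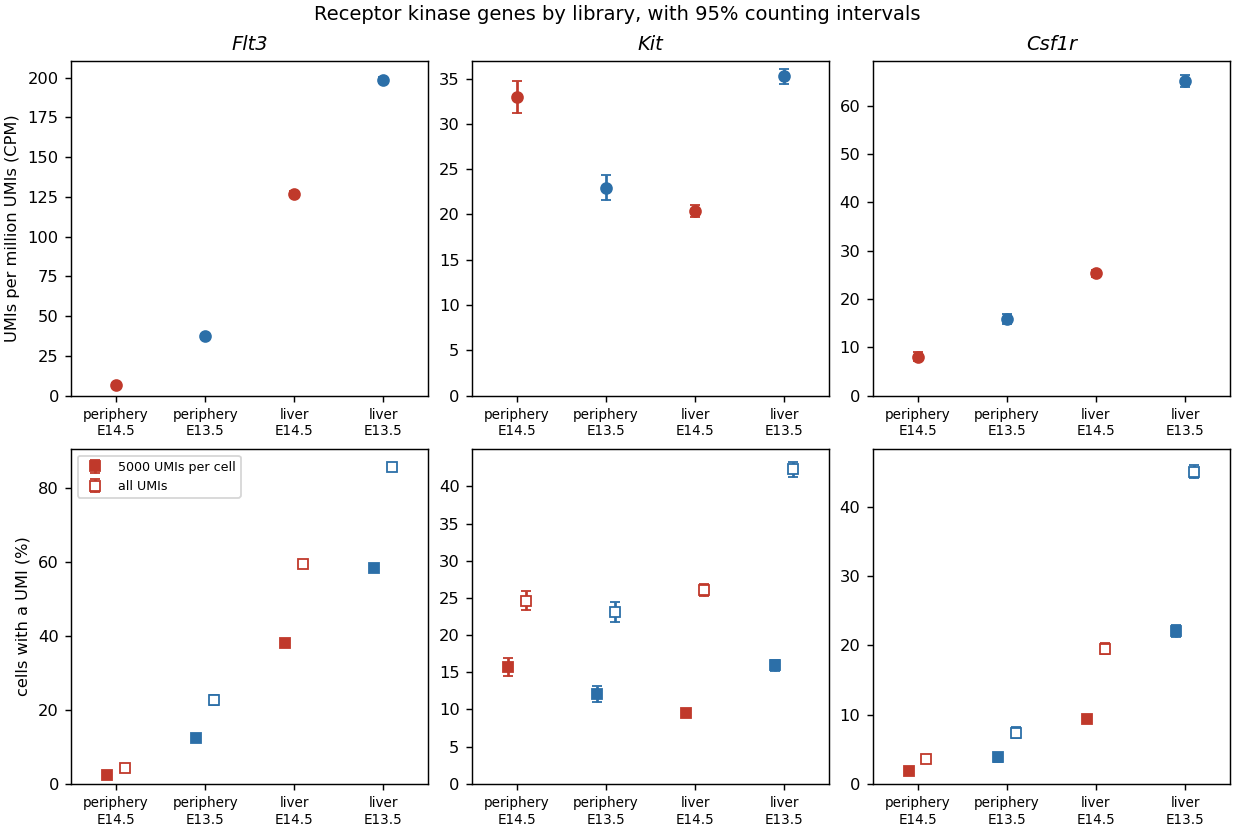
Level in CPM (top, from 0) and percent of cells with at least 1 UMI (bottom, from 0) of Flt3, Kit and Csf1r in the 4 libraries, E14.5 in red and E13.5 in blue. Points are single libraries with 95% counting intervals, and the bottom plots show cells thinned to 5000 UMIs (filled) beside all UMIs (open). Flt3 and Csf1r climb over the 4 libraries in the order drawn, up to 199 and 65.2 CPM, while Kit has its 2 highest levels, 32.9 and 35.2 CPM, at the ends.

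Differences between libraries are given as log2 folds of CPM plus 5, minus the median over all genes at 10 CPM or more in either library. In fetal liver, E14.5 against E13.5, the fold was -0.59 for Flt3, -0.64 for Kit and -1.18 for Csf1r. There 1.61% of 7746 measured genes had a fold of 1 or more in size, among the 3 only Csf1r. Only 0.142% of measured genes had a lower fold than Csf1r, against 1.69% for Kit and 2.05% for Flt3. In periphery, E14.5 against E13.5, the fold was -2.07 for Flt3, 0.21 for Kit and -0.90 for Csf1r, and 3.73% of 7241 genes passed a size of 1, among the 3 only Flt3. The 95% counting error of these 6 folds was at most 0.18 to either side.

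Between tissues the fold of periphery over fetal liver was -3.32 for Flt3, 0.75 for Kit and -1.05 for Csf1r at E14.5, where 23.6% of 8119 genes passed a size of 1. At E13.5 it was -1.86, -0.12 and -1.34, where 23.1% of 7986 genes passed. Flt3 and Csf1r passed at both stages. With cells weighted equally the E14.5 value of Csf1r was -0.70, under 1 in size.

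The share of cells with at least 1 UMI was taken after each cell was thinned to 5000 UMIs so that depths match, which left out 458, 322, 745 and 371 shallower cells in E14.5 periphery, E13.5 periphery, E14.5 fetal liver and E13.5 fetal liver. Flt3 was then found in 2.48% (2.02 to 3.02) of E14.5 and 12.3% (11.2 to 13.3) of E13.5 periphery cells, and in 38.1% (37.1 to 39.0) of E14.5 and 58.2% (57.2 to 59.2) of E13.5 fetal liver cells. Unthinned, these shares were 4.32, 22.6, 59.5 and 85.5%. As a background, mast cell or basophil-like cells of fetal liver, which should lack Flt3, had it in 3.18% at E14.5 and 3.77% at E13.5, at median depths of 10171 and 13403 UMIs. In periphery mast cell or basophil-like cells had it in 0 of 82 at E14.5 and 0 of 79 at E13.5, where the exact intervals reach 4.40 and 4.56%. LTi-like cells, also set as a background class, had Flt3 in 1.78% at E14.5 and 4.09% at E13.5 in periphery. In fetal liver LTi-like cells had it in 18.5% at E14.5 and 35.1% at E13.5. These shares lay far above those of mast cell or basophil-like cells, so LTi-like cells of fetal liver are not read as a background.

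Kit was found in 15.7% (14.54 to 16.9) of E14.5 and 12.1% (11.1 to 13.1) of E13.5 periphery cells, and in 9.53% (8.97 to 10.1) of E14.5 and 15.9% (15.2 to 16.7) of E13.5 fetal liver cells. Unthinned, these were 24.6, 23.1, 26.0 and 42.3%, so that E14.5 fetal liver, the lowest of the 4 libraries in Kit level and in thinned share, lay above both periphery libraries. Monocyte or macrophage-like cells of the periphery had Kit in 6.45% of 31 thinned cells at E14.5 and 5.08% of 118 at E13.5. Group 1 innate lymphoid or NK-like cells, also set as background for Kit, had it in 9.78% at E14.5 and 13.3% at E13.5 in periphery. In fetal liver they had it in 8.91% at E14.5 and 19.2% at E13.5. At E13.5 these shares were not below the 12.1 and 15.9% of the whole libraries, so this class is not read as a background for Kit. Csf1r was found in 1.84% (1.44 to 2.31) of E14.5 and 3.80% (3.22 to 4.45) of E13.5 periphery cells, and in 9.41% (8.85 to 10.0) of E14.5 and 22.1% (21.3 to 22.9) of E13.5 fetal liver cells. Unthinned, these were 3.51, 7.35, 19.5 and 45.2%. LTi-like cells, which should lack Csf1r, had it in 0.931% at E14.5 and 0.818% at E13.5 in periphery, and in 1.59% at E14.5 and 1.95% at E13.5 in fetal liver. The median depths of those LTi-like cells were 8413 and 9978 UMIs in periphery and 8934 and 10869 UMIs in fetal liver. B lineage-like cells, also set as background for Csf1r, had it in 0.337% at E14.5 and 2.43% at E13.5 in periphery. In fetal liver they had it in 1.86% at E14.5 and 7.14% at E13.5.

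In E14.5 periphery most positive cells had a single UMI for each of the 3 genes, while most Csf1r RNA lay in few cells. There 76.9% of Kit-positive, 75.7% of Csf1r-positive and 72.2% of Flt3-positive cells had a single UMI. The 1% of cells richest in Kit held 10.53% of its UMIs. The richest 1% of cells held 67.7% of all Csf1r UMIs in E14.5 periphery and 42.4% in E13.5 periphery. In fetal liver they held 18.0% at E14.5 and 9.60% at E13.5. A Flt3-positive cell of fetal liver carried 3.57 Flt3 UMIs on average at E14.5 and 4.38 at E13.5, at most 21 in either library.

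Cells of each tissue were grouped into clusters without using the 3 receptor genes, and clusters were named after marker genes that do not include them. In fetal liver Flt3 was highest in lymphoid progenitor-like cells. Cluster 10, led by Stc1, Cavin2 and Ccr9, stood at 283 CPM (266 to 301) at E14.5 and 284 CPM (276 to 292) at E13.5. The lymphoid progenitor-like clusters 3 and 0 followed with 239 and 225 CPM at E14.5 and 267 and 251 CPM at E13.5. Stem and multipotent progenitor-like cells (cluster 6, with Adgrl4 and Hlf among its leading genes) had 222 CPM at E14.5 and 230 CPM at E13.5. At E14.5 the intervals of clusters 3, 0, 6, 4 and 9, in falling order of Flt3, each overlapped that of their neighbour, and cluster 10 stood apart from them.

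Flt3 was lower along the B lineage. Cluster 5, led by Rag1 and with Pax5 among its leading genes, had 145 CPM (140 to 151) at E14.5 and 160 CPM (148 to 172) at E13.5. Clusters 1 and 7, led by the surrogate light chain genes Igll1 and Vpreb1, had 30.4 and 30.5 CPM at E14.5, with overlapping intervals. Cluster 16, led by the light chain gene Igkc and almost all of E14.5, had 9.499 CPM (7.32 to 12.1). Neutrophil lineage-like cells (cluster 18) had 12.4 CPM at E14.5 and 9.26 CPM at E13.5, and mast cell or basophil-like cells (cluster 12) had 13.48 and 14.4 CPM.

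Csf1r in fetal liver was highest in clusters 13 and 2, which have no class name but some monocyte or dendritic genes among their leading genes. By the naming rule cluster 13 had 4 of 10 conventional dendritic, 3 of 16 monocyte or macrophage and 5 of 9 innate lymphoid progenitor markers. Cluster 2 had 2, 5 and 4 of them. Cluster 13, led by Nrp1, Id2 and the dendritic cell factor gene Batf3, had 140 CPM (124 to 157) at E14.5 and 148 CPM (141 to 155) at E13.5. Cluster 2, led by Ms4a6c and by Irf8, the gene of a factor needed for monocyte and dendritic fates, had 105 CPM (100 to 111) and 158 CPM (153 to 163). Plasmacytoid dendritic-like cells (cluster 8) followed with 76.5 and 133 CPM, and neutrophil lineage-like cells with 54.5 and 71.1 CPM. Cluster 2 alone held 33.4% of the Csf1r UMIs of E14.5 fetal liver and 34.1% of those of E13.5. Among the lowest were group 1 innate lymphoid or NK-like cells, with 0.604 CPM at E14.5 and 4.73 CPM at E13.5, and the innate lymphoid progenitor-like cluster 14, with 1.49 and 1.61 CPM.

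With the 19 fetal liver clusters of E14.5 sorted by Kit, each interval overlapped that of the next, as sorting by the level itself favours. The range was wide, from 8.31 CPM (6.28 to 10.8) in cluster 16 to 43.9 CPM (35.0 to 54.5) in cluster 11. At E14.5 LTi-like cells had 43.4 CPM (35.2 to 52.9), lymphoid progenitor-like cluster 10 had 37.8, innate lymphoid progenitor-like cluster 14 had 37.5 and stem and multipotent progenitor-like cells had 34.3 CPM. At E13.5 cluster 10 had 56.2 CPM (52.6 to 60.0), stem and multipotent progenitor-like cells had 55.0 (52.2 to 57.9), cluster 14 had 46.6 and LTi-like cells had 45.1 CPM. The highest mean at both stages, 43.9 and 69.2 CPM, was in cluster 11, whose cells had median depths of 2758.5 and 3757 UMIs and no name. It met the marker counts of several classes, with 9 of 10 B lineage and 7 of 9 lymphoid progenitor markers. At this depth, with no class marker among its leading genes, it was left unnamed. Plasmacytoid dendritic-like cells were among the lowest, with 10.4 CPM at E14.5 and 15.4 CPM at E13.5. The cluster of mast cells or basophils, led by the basophil protease genes Mcpt8 and Prss34, had 14.4 and 9.39 CPM.

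**Figure D2:**
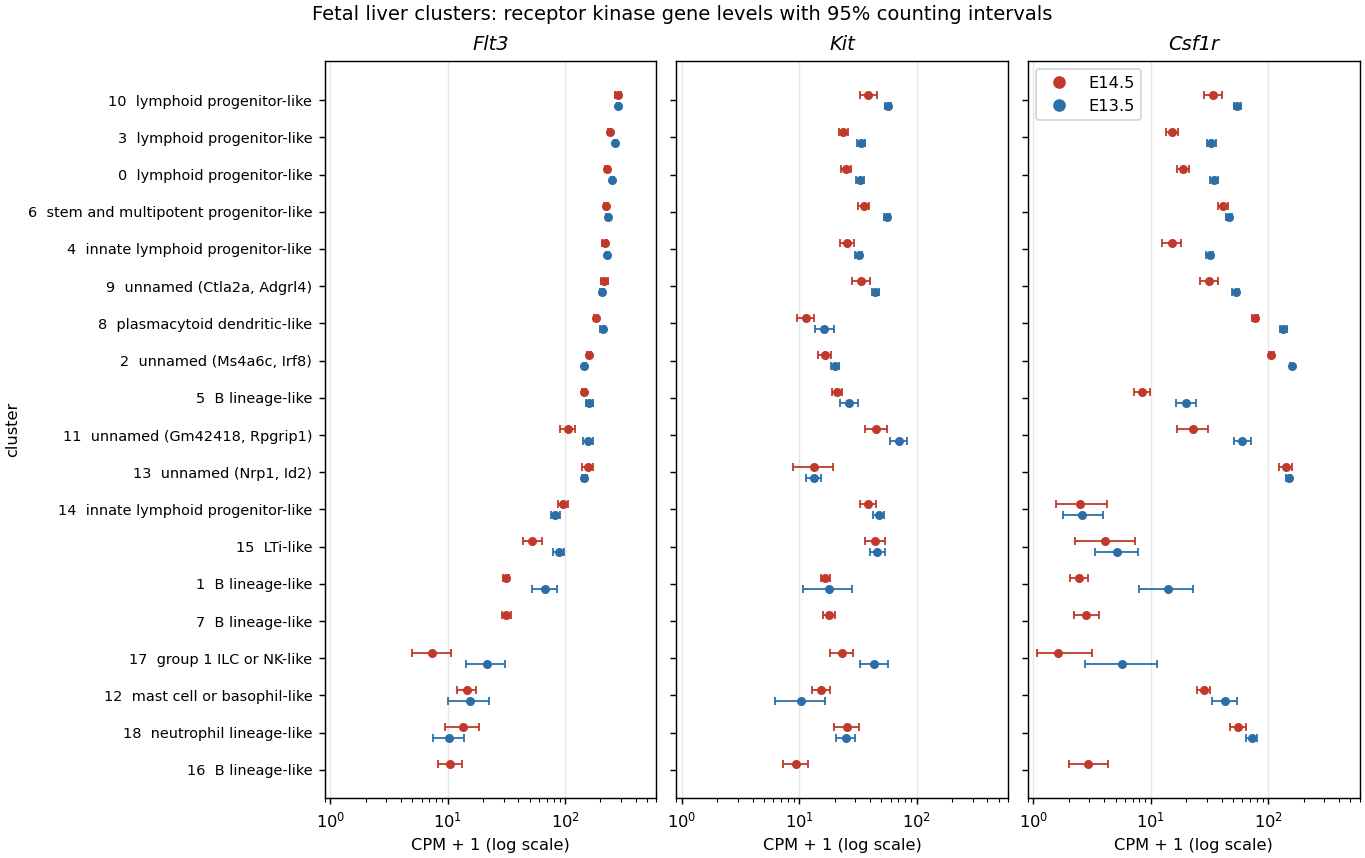
Level of each gene as CPM plus 1 on a log axis in fetal liver clusters of at least 50 cells, E14.5 in red and E13.5 in blue, with 95% counting intervals and clusters ordered from the top by Flt3. Flt3 is highest in cluster 10 and lowest in clusters 12, 16, 17 and 18, Csf1r is highest in clusters 2, 8 and 13, and the E14.5 point of Csf1r lies left of the E13.5 point in all 17 clusters that have both.

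The lower fetal liver levels at E14.5 were set against the make-up of the libraries over the 17 clusters with at least 50 cells at both stages, which held 87.5% of the E14.5 and 99.8% of the E13.5 UMIs. B lineage-like cells numbered 4380 of 10892 at E14.5 and 463 of 9773 at E13.5, and lymphoid progenitor-like cells 2022 and 2682. When the E14.5 cluster levels were weighted by the E13.5 cluster mix, Flt3 came to 193 CPM at E14.5 against 199 CPM at E13.5, or 96.8% of it. With its own mix over the same clusters, E14.5 stood at 142 CPM, or 71.3%.

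Kit and Csf1r kept more of their difference at a fixed mix. Kit came to 25.8 CPM at E14.5 with the E13.5 mix and 21.2 CPM with its own, against 35.2 CPM at E13.5. Csf1r came to 44.4 CPM at E14.5 with the E13.5 mix and 28.6 CPM with its own, against 65.3 CPM at E13.5. As log2 differences of CPM plus 5, the fixed mix gave -0.05 for Flt3, -0.39 for Kit and -0.51 for Csf1r, and the own mix -0.47, -0.62 and -1.06.

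**Figure D3:**
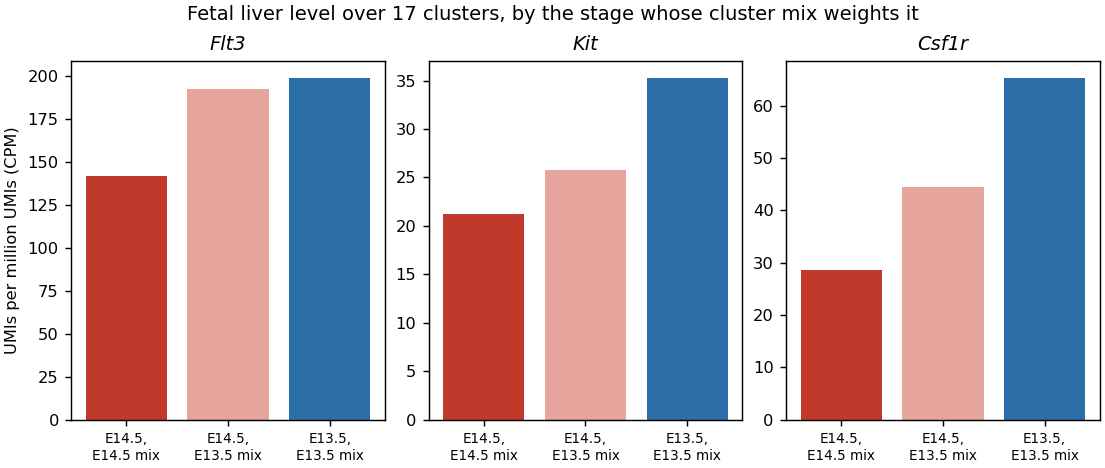
Level in CPM, from 0, of the 3 genes in fetal liver over the 17 shared clusters: E14.5 with its own cluster mix (red), E14.5 with the E13.5 mix (light red) and E13.5 (blue). With the E13.5 mix the E14.5 bar of Flt3 reaches 193 of 199 CPM, that of Kit 25.8 of 35.2 CPM and that of Csf1r 44.4 of 65.3 CPM.

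Cluster by cluster, Csf1r was lower at E14.5 in 17 of 17 fetal liver clusters, in 11 of them with intervals apart. Kit was lower in 15 of 17, with intervals apart in 9. Flt3 was lower in 12 and higher in 5, with intervals apart in 7 lower and 1 higher cluster. The counts of lower clusters were the same after the median of all genes in each cluster, between -0.02 and 0.03, was taken off. Intervals were compared without that step only. How many of all genes give such counts was not taken. All clusters of a stage come from 1 library, so they are not replicates of each other. At other clusterings Csf1r was lower in 25 of 26 (resolution 2) and 15 of 16 clusters (another seed).

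The size of the Csf1r difference varied between clusters. In cluster 13 it stood at 140 CPM at E14.5 and 148 CPM at E13.5, with overlapping intervals, and in stem and multipotent progenitor-like cells at 39.96 and 45.6 CPM, also overlapping. In cluster 2, with 105 and 158 CPM, and in plasmacytoid dendritic-like cells, with 76.5 and 133 CPM, the intervals were apart. In lymphoid progenitor-like cluster 3 it stood at 14.2 CPM (12.6 to 15.9) at E14.5 and 31.8 CPM (29.2 to 34.6) at E13.5, and in cluster 0 at 17.9 and 33.5 CPM. In innate lymphoid progenitor-like cluster 4 it stood at 14.1 and 30.7 CPM. Free RNA in droplets was not modelled and its part was not tested. In innate lymphoid progenitor-like cluster 14, where Csf1r is near 0, it stood at 1.49 CPM (0.546 to 3.24) at E14.5 and 1.61 CPM (0.802 to 2.87) at E13.5.

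Kit was lower at E14.5 in stem and multipotent progenitor-like cells, with 34.3 CPM (30.7 to 38.3) at E14.5 and 55.0 CPM (52.2 to 57.9) at E13.5. It was lower too in cluster 10, with 37.8 and 56.2 CPM, whereas in LTi-like cells the values of 43.4 and 45.1 CPM had overlapping intervals. Flt3 was nearly level in cluster 10 (283 and 284 CPM) and in stem and multipotent progenitor-like cells (222 and 230 CPM). It was lower in LTi-like cells of fetal liver, with 51.8 CPM (42.8 to 62.1) at E14.5 and 87.4 CPM (78.3 to 97.3) at E13.5.

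In periphery the cells richest in Flt3 were scarce at E14.5. Lymphoid progenitor-like cells (cluster 5, with Cd34 and Hoxa7 among its leading genes) numbered 30 at E14.5, or 0.694% of cells, and 636 at E13.5, or 15.3%. They held 29.7% of the Flt3 UMIs at E14.5 and 65.6% at E13.5. Within them Flt3 stood at 153 CPM (122 to 190) at E14.5 and 123 CPM (117 to 130) at E13.5. Plasmacytoid dendritic-like cells numbered 7 at E14.5 and 132 at E13.5, with 121 CPM (58.0 to 223) and 108 CPM (92.8 to 124). In both classes the E14.5 value lay above the E13.5 value with overlapping intervals, and both are under 50 cells at E14.5.

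B lineage-like cells of the periphery (cluster 7) had 13.7 CPM of Flt3 (10.8 to 17.03) at E14.5 and 38.0 CPM (32.4 to 44.2) at E13.5, with cell numbers of 307 and 300. LTi-like cells, the most numerous class, had 3.53 CPM (2.84 to 4.35) at E14.5 and 8.91 CPM (7.74 to 10.2) at E13.5, and held 31.4 and 11.1% of the Flt3 UMIs. LTi-like clusters 0, 2 and 3 are nearly all of E14.5 and clusters 1, 4 and 8 nearly all of E13.5, so stage and cluster cannot be told apart in this class. Only 5 periphery clusters, with 23.8% of the E14.5 and 24.5% of the E13.5 UMIs, had at least 50 cells at both stages, and over the 3 genes only Flt3 in cluster 7 had intervals apart.

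Most Kit UMIs of the periphery lay in LTi-like cells, which also made up 2746 of 4325 cells at E14.5 and 2233 of 4166 at E13.5. Other classes had Kit too, with 22.2 CPM in lymphoid progenitor-like and 12.3 CPM in B lineage-like cells at E13.5. LTi-like cells held 72.5% of Kit UMIs at E14.5 and 58.1% at E13.5. Their level was 39.6 CPM (37.2 to 42.2) at E14.5 and 28.7 CPM (26.6 to 31.0) at E13.5, against 32.9 and 22.9 CPM in the whole libraries. Between the whole periphery libraries the median of all genes moved by 0.23 on the log2 scale in the same direction. Among the E14.5 clusters, LTi-like cluster 2, with Madcam1, Ccr6 and Tmem176b among its leading genes, had 66.5 CPM (60.2 to 73.2). LTi-like clusters 0 and 3 of the same library had 32.2 CPM (28.6 to 36.2) and 29.8 CPM (26.5 to 33.5). Cluster 13, led by the class II antigen presentation genes H2-Aa, H2-Eb1 and Cd74 and sharing Rab26 and Asb2 with cluster 2, had 66.3 CPM (51.4 to 84.0). Its 134 cells of E14.5 held no UMI of Flt3 or Csf1r, which allows up to 3.59 CPM of each. The E13.5 LTi-like clusters 4, 1 and 8 had 32.7, 29.4 and 24.7 CPM.

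Csf1r in periphery was concentrated in monocyte or macrophage-like cells, which held 62.9% of its UMIs at E14.5 and 69.0% at E13.5. Their level was 385 CPM (335 to 441) in 143 cells at E14.5 and 219 CPM (201 to 238) in 219 cells at E13.5, at median depths of 1147 and 6467 UMIs. Of its 2 clusters, cluster 12, led by S100a8, Lyz2 and complement genes, had 447 CPM (386 to 514) in 39 cells at E14.5 and 227 CPM (207 to 247) in 113 cells at E13.5. Cluster 11, whose leading genes also include the erythroid gene Alas2 and the platelet gene Pf4, had 161 CPM (97.0 to 252) and 154 CPM (112 to 208), with overlapping intervals. Cells with F4/80 on the surface had been gated out. LTi-like cells had 2.38 CPM (1.82 to 3.06) at E14.5 and 2.30 CPM (1.73 to 3.003) at E13.5. Lymphoid progenitor-like cells had 11.0 CPM (4.02 to 23.9) at E14.5 and 9.59 CPM (7.77 to 11.7) at E13.5.

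**Figure D4:**
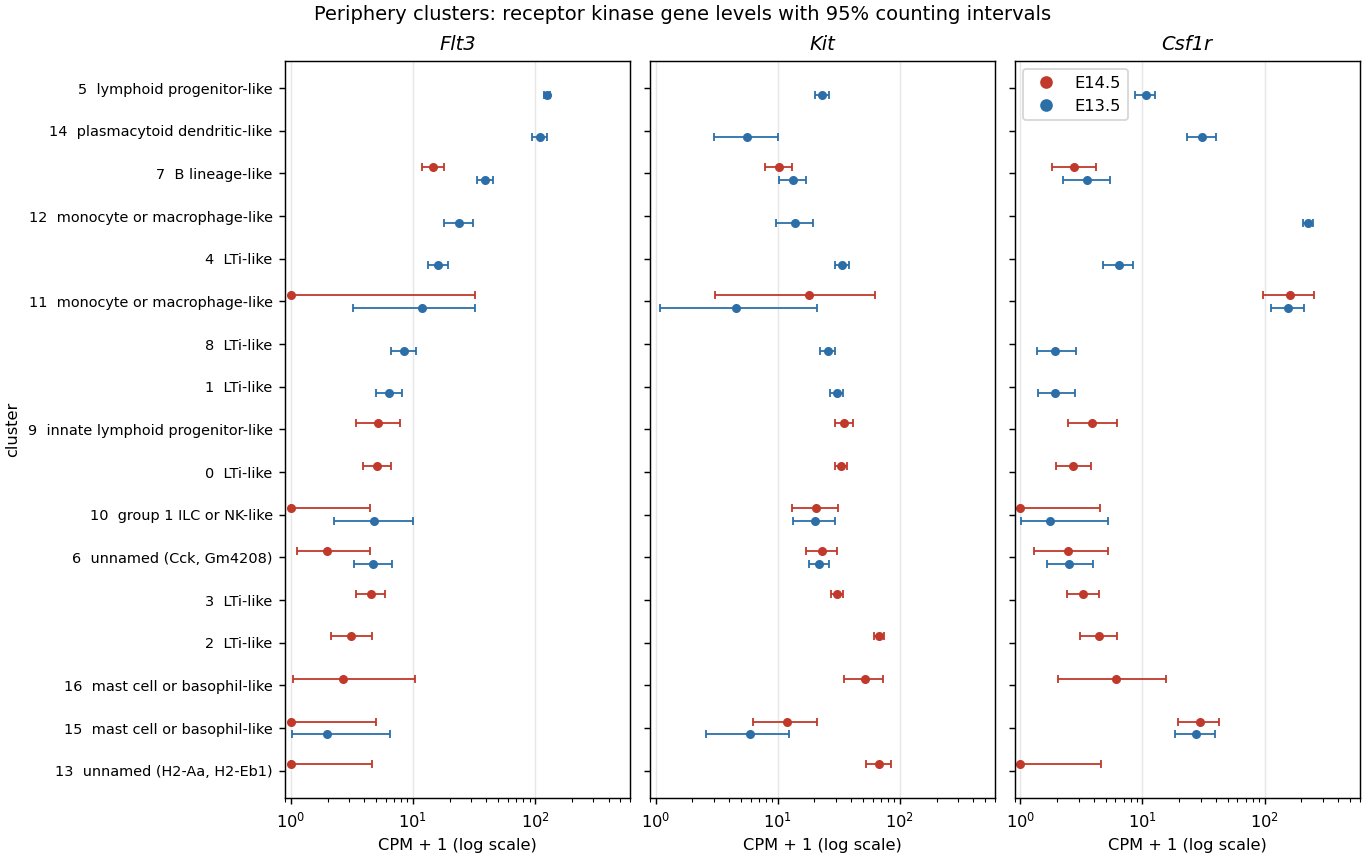
Level of each gene as CPM plus 1 on a log axis in periphery clusters of at least 50 cells, E14.5 in red and E13.5 in blue, with 95% counting intervals and clusters ordered from the top by Flt3. Most clusters belong to 1 stage, Flt3 is highest in clusters 5 and 14, Csf1r in clusters 11 and 12, and Kit in clusters 2 and 13 (66.5 and 66.3 CPM).

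Detection of 1 receptor gene together with another was set against the product of the shares, cells again thinned to 5000 UMIs, so that a ratio of 1 means the number of cells that independent detection would give. In E14.5 fetal liver Flt3 and Csf1r were found together in 494 of 10147 cells, 1.36 times the product (1.24 to 1.48). In E13.5 fetal liver they were found together in 1188 of 9402 cells, 0.98 times the product (0.93 to 1.04). Flt3 and Kit were together in 389 cells at E14.5, 1.06 times the product (0.96 to 1.17), and in 883 at E13.5, 1.01 times (0.95 to 1.08). Kit and Csf1r were together in 84 cells at E14.5, 0.92 times (0.74 to 1.14), and in 279 at E13.5, 0.84 times (0.75 to 0.95).

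In periphery few cells had more than 1 of the 3 genes. Flt3 and Kit were together in 8 cells of 3867 at E14.5, 0.53 times the product (0.23 to 1.05), and in 53 of 3844 at E13.5, 0.93 times (0.70 to 1.22). Flt3 and Csf1r were together in 3 cells at E14.5, 1.70 times (0.35 to 4.97), and in 24 at E13.5, 1.34 times (0.86 to 1.99). Kit and Csf1r were together in 11 cells at E14.5, 0.99 times (0.49 to 1.77), and in 8 at E13.5, 0.45 times (0.20 to 0.89). Only the last interval excluded a ratio of 1, and that ratio was 0.846 with cells thinned to 3000 UMIs. At 3000 UMIs the E13.5 ratio of Flt3 with Csf1r turned to 0.668 and that of Flt3 with Kit to 1.27. The E14.5 ratio of Flt3 with Kit was then 0.197, that of Flt3 with Csf1r 2.76 and that of Kit with Csf1r 1.07, so no direction is read from the periphery ratios.

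With the product taken in each cluster and summed, the 6 fetal liver ratios had intervals that held 1. Flt3 and Csf1r came to 1.03 (0.94 to 1.13) at E14.5 and 0.99 (0.94 to 1.05) at E13.5. Flt3 and Kit came to 0.96 (0.86 to 1.06) and 0.98 (0.91 to 1.04), and Kit and Csf1r to 0.99 (0.79 to 1.23) and 0.99 (0.88 to 1.11). In single fetal liver clusters where at least 5 joint cells were expected, the ratio ranged from 0.481 to 1.25 for Flt3 with Kit, from 0.752 to 1.22 for Flt3 with Csf1r and from 0.351 to 1.30 for Kit with Csf1r. Every one of these intervals held 1. They cover the counting error of the joint cells, with the product taken as exact, so their width is approximate. With few joint cells an interval is also wide, and one that holds 1 does not show independence. In periphery the summed ratios spread further. Flt3 with Kit came to 0.68 (0.25 to 1.47) at E14.5 and 1.21 (0.90 to 1.58) at E13.5, and Kit with Csf1r to 1.61 (0.73 to 3.05) and 0.80 (0.34 to 1.57). Flt3 with Csf1r had 0 joint cells at E14.5, where 0.571 were expected, and 24 at E13.5, where 23.9 were expected (interval of the ratio 0.64 to 1.49).

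**Figure D5:**
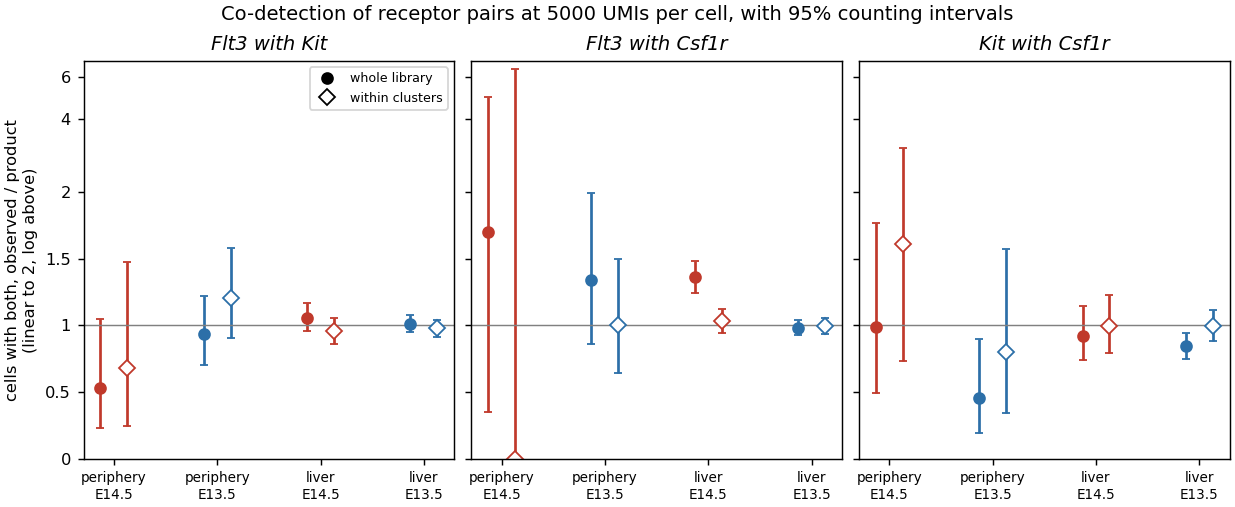
Cells with both genes of a pair, observed over the product of the single shares at 5000 UMIs per cell, for whole libraries (filled circles) and with the product taken within clusters (open diamonds), with 95% counting intervals; the axis is linear to 2 and logarithmic above. The fetal liver diamonds lie between 0.956 and 1.03, while the whole-library value of Flt3 with Csf1r in E14.5 fetal liver is 1.36.

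With all UMIs counted, cells with all 3 receptor genes made up 0.0925% of E14.5 and 0.744% of E13.5 periphery cells, and 5.35% of E14.5 and 18.5% of E13.5 fetal liver cells. At least 1 of the 3 was found in 30.6, 44.0, 69.8 and 93.1% of cells in the same order. Depth enters these shares, since fetal liver cells with all 3 had median depths of 23441 UMIs at E14.5 and 22732.5 at E13.5, against 11296 and 9664 in cells with none. After thinning, all 3 were found in 0.532% of E14.5 and 1.79% of E13.5 fetal liver cells, and in 0 of 3867 and 0 of 3844 periphery cells, where the exact intervals reach 0.0953 and 0.0959%.

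Fetal liver cells with Flt3 were split by a UMI of Csf1r, with all UMIs counted and no thinning, as in the splits below. Cells with both numbered 1781 at E14.5 and 4022 at E13.5. Depth differed between such groups. At E14.5 median depths of Flt3-positive cells were 16150 UMIs with Flt3 only, 19456.5 with Kit, 19868.5 with Csf1r and 23441 with all 3. The part of depth was not tested. With at least 2 UMIs for detection, 92 of 110 gene values by pattern moved. Ms4a6c, a myeloid membrane protein gene, stood at 51.5 CPM with Csf1r and 3.99 CPM without at E14.5, and at 21.6 and 1.77 CPM at E13.5. Irf8 stood at 397 CPM with Csf1r and 126 without at E14.5, and at 242 and 67.9 CPM at E13.5. Prtn3, a granule protease gene, stood at 530 and 106 CPM at E14.5 and at 432 and 151 CPM at E13.5. The 5 genes lowest with Csf1r were Tcf7, Jchain, Cd79a, Arl5c and Myl4. Tcf7, a T and innate lymphoid factor gene, stood at 5.31 CPM with Csf1r and 38.4 without at E14.5, and at 5.87 and 91.1 CPM at E13.5. The B cell receptor component gene Cd79a stood at 68.3 and 362 CPM at E14.5 and at 11.5 and 43.2 CPM at E13.5. These are genes with the largest differences by a fixed rule, of 5639 compared, and have no test.

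In their leading genes, fetal liver cells with Flt3 differed less by a UMI of Kit than by a UMI of Csf1r. Of all Kit-positive fetal liver cells, 77.0% at E14.5 and 63.3% at E13.5 had a single UMI, against 52.1 and 40.3% of Csf1r-positive cells. A cell without a UMI may still have the RNA, and the part of this sparser detection in the smaller differences was not tested. Ctla2a stood at 38.0 CPM with Kit and 21.6 without at E14.5, and at 99.3 and 47.0 CPM at E13.5, while Adgrl4, an adhesion receptor gene used to mark stem cells, stood at 23.5 and 13.2 CPM and at 55.1 and 24.6 CPM. Mycn and Hoxa9, factor genes of early progenitors, were also among the 5 highest, with log2 folds of 0.48 and 0.45 at E14.5 and 0.64 and 0.70 at E13.5. Ly6d, which marks B and plasmacytoid dendritic fates, stood at 76.9 CPM with Kit and 270 without at E14.5, and at 8.99 and 25.8 CPM at E13.5.

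The genes that differed most by a UMI of Flt3 included granulocyte and mast cell genes, lower with Flt3. Among Kit-positive fetal liver cells, the neutrophil elastase gene Elane stood at 21.8 CPM with Flt3 and 413 without at E14.5, and at 6.35 and 512 CPM at E13.5. Cpa3, a mast cell protease gene, stood at 16.04 and 257 CPM at E14.5 and at 10.1 and 204 CPM at E13.5. Among Csf1r-positive cells, Elane stood at 16.4 CPM with Flt3 and 826 without at E14.5, and at 4.51 and 533 CPM at E13.5. Hoxa9 and Cd27 went the other way, with Cd27 at 76.6 CPM with Flt3 and 13.9 without at E14.5, and at 78.4 and 17.4 CPM at E13.5.

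The summed level of fixed gene lists by detection pattern was read beside these. Granule genes summed to 9826 CPM at E14.5 and 9697 CPM at E13.5 in fetal liver cells with Kit and Csf1r but no Flt3, 56 and 101 cells. In cells with Flt3 only they summed to 343 and 563 CPM, and in cells with none of the 3 to 911 and 3750 CPM. Cells with Kit only had 1634 CPM of granule genes at E14.5 and 4212 CPM at E13.5. At E14.5 the B lineage genes stood higher in those cells, at 5132 CPM, and at E13.5 at 523 CPM. Innate lymphoid genes summed there to 659 CPM at E14.5 and 1608 CPM at E13.5. Mast cell and basophil genes summed to 3552 CPM at E14.5 and 651 CPM at E13.5 in cells with Csf1r only, to 1201 and 1185 CPM in cells with none of the 3, and to 72.8 and 33.1 CPM in cells with Flt3 only. Stem cell genes were highest in cells with all 3 (511 CPM) at E14.5 and in cells with Flt3 and Kit (812 CPM) at E13.5.

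The genes whose level was most like each receptor over clusters of at least 50 cells were named by Pearson's r of log2 CPM plus 5, as a description over clusters that share libraries and depth. Over the 19 fetal liver clusters Flt3 was most like Stau1 (r = 0.96) and Tsc22d1 (0.96), Kit most like Rhbdd2 (0.82) and Arap1 (0.81), with Mycn at 0.81, and Csf1r most like Sirpa (0.89) and Erp29 (0.89). Over the 17 periphery clusters Flt3 was most like Irf4 and Lppr3 (0.93 each), Kit most like Gcsam (0.93) and Csf1r most like Ms4a6c (0.99). These genes were picked as the highest of 7723 compared in fetal liver and 7120 in periphery, over few clusters, and have no test. Between the receptors themselves r was 0.45 for Kit with Flt3, 0.49 for Csf1r with Flt3 and 0.00 for Csf1r with Kit in fetal liver, and -0.43, 0.32 and -0.64 in periphery.

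Other genes of the pathway were taken from lists. Of the 4 ligand genes 1 was measured in the fetal liver stage comparison. It was Csf1, at 11.6 CPM at E14.5 and 1.95 CPM at E13.5 (log2 fold 1.29). Flt3l stood at 2.68 and 3.15 CPM and Kitl, which encodes stem cell factor, at 0.0991 and 0.413 CPM, below the 10 CPM limit. In the periphery stage comparison 0 of 4 ligand genes were measured. Of 24 signalling and docking genes, 21 were measured in fetal liver, with 7 folds above 0 and 14 below and a median of -0.11. One of them passed a size of 1, the cytokine signalling inhibitor gene Socs2, at 32.9 CPM at E14.5 and 7.21 CPM at E13.5 (1.66). The lowest were the kinase gene Fes (-0.62), the phosphatase gene Ptpn6 (-0.59) and the adaptor gene Dok2 (-0.59). In periphery 18 were measured and 0 passed, with a median of -0.06, from Fes (-0.39) to the adaptor gene Sla (0.79). Of all measured genes 1.61% passed in the fetal liver and 3.73% in the periphery stage comparison.

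Of the other cytokine receptors of progenitors, 7 of 12 were measured in fetal liver and 4 of 12 in periphery, and 0 passed a size of 1 in either. Over all measured genes 1.61% passed in fetal liver and 3.73% in periphery. Csf3r, the receptor gene of granulocyte growth factor, stood at 2.84 CPM at E14.5 and 10.4 CPM at E13.5 in fetal liver (-0.94). Stem cell genes were below 0 in 5 of 5 measured in fetal liver with a median of -0.96, among them Cd34 at 185 and 478 CPM (-1.31). B lineage genes were above 0 in 9 of 9 measured with a median of 3.16. Over all genes the median is 0 by the centring.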

How the data were processed

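The authors deposited raw UMI counts for every gene in every barcode, made with Cell Ranger version 3 on mm10 per the submitters' processing notes (per the file headers 3.0.0 in the liver files, 3.0.1 in the others). The receptor genes, lists and tests were chosen with earlier results of these data known. Barcodes under 500 genes or over 10% mitochondrial UMIs were dropped, and doublets marked by Scrublet, by its automatic threshold in E14.5 fetal liver and by the expected rate elsewhere, were left out. Genes were joined by Ensembl ID. Levels are UMIs summed over cells with exact Poisson intervals, and shares have exact Clopper-Pearson intervals. Cells of each tissue were clustered over both stages in scanpy 1.11.5 (2000 variable genes, 30 components, 15 neighbours, Leiden resolution 1, seed 1) without the 3 receptor genes. A class name needed at least 3 and over 50% of its markers at 20 CPM or more, each exceeding that marker's lower quartile over clusters by 1 log2 unit or more, an above-average marker mean, and no other class with more markers among the 10 leading genes. Shallow clusters, under the lower library median depth divided by 3, also needed a marker of the class among those leading genes. Periphery cluster 13 met the conventional dendritic rule but shares leading genes with an LTi-like cluster and is called by its leading genes. Named genes were the 3 receptors, up to 6 list members by size of fold, the 5 genes most like each receptor, and the 5 genes a direction with the largest smaller-of-2-stages fold between detection patterns. The statistics were tested on simulated data. Python 3.11.15, numpy 2.4.6 and scipy 1.17.1 were used. Alternatives were another pseudocount, no centring, no filter, equal cell weights, thinning to 3000 UMIs, doublets kept, another Leiden resolution and seed, and at least 2 UMIs for detection.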

Additional observations from a re-analysis of the deposited data

Results flagged for a closer look

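Kit moved in opposite directions between stages in the 2 tissues, with a centred log2 fold of E14.5 over E13.5 of 0.21 in periphery and -0.64 in fetal liver. Its fold of periphery over fetal liver was 0.75 at E14.5 and -0.12 at E13.5. These differences between folds were not tested, since each group is 1 library. Of measured genes 75.1% had a lower fold than Kit in the periphery stage comparison, and 43.7% in that of the tissues at E13.5. Over the 5 shared periphery clusters, which include no LTi-like cluster, Kit with the E13.5 mix was 16.2 CPM at E14.5 and 15.9 CPM at E13.5. All 5 had overlapping Kit intervals.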

How the results depend on the processing

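No paired analysis was possible because each group is 1 library and no result comes from a test. With doublets kept, all 36 folds, shares and co-detection ratios stayed within their spread. Fold values for Flt3, Kit and Csf1r kept their sign under each setting. In the fetal liver stage comparison Flt3 was -0.62 not centred, -0.62 with no filter and -0.70 with equal cell weights, and with a pseudocount of 1 CPM Kit was -0.73 and Csf1r -1.30. In the periphery stage comparison Flt3 was -1.84 not centred, -1.88 with no filter and -2.56 with a pseudocount of 1, and Kit was 0.44 and 0.41 not centred and with no filter. Csf1r was there -0.68 not centred, -0.71 with no filter, -0.65 with equal weights and -1.16 with a pseudocount of 1, past a size of 1. For periphery over fetal liver at E14.5, Flt3 was -3.86 with a pseudocount of 1 and -3.50 with equal weights. Kit was 0.86 with a pseudocount of 1, 0.87 with equal weights, 0.58 not centred and 0.58 with no filter, and Csf1r -1.35, -0.70, -1.22 and -1.21. At E13.5 Flt3 was -2.27 not centred, -2.06 with equal weights and -2.26 with no filter, Kit -0.53 not centred and -0.52 with no filter, and Csf1r -1.50 with a pseudocount of 1, -1.75 not centred and -1.74 with no filter.

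Thinned to 3000 UMIs, Flt3 was found in 1.17% of E14.5 and 8.59% of E13.5 periphery cells and in 27.0% of E14.5 and 43.2% of E13.5 fetal liver cells. Kit was found in 10.6, 6.78, 5.82 and 9.80% in the same order, and Csf1r in 3.02% of E13.5 periphery, 5.82% of E14.5 and 15.2% of E13.5 fetal liver cells. Co-detection ratios fell on the other side of 1 for Flt3 with Kit (1.27) and Flt3 with Csf1r (0.668) in E13.5 periphery and for Kit with Csf1r (1.07) in E14.5 periphery. Flt3 with Kit moved to 0.197 in E14.5 periphery and 1.20 in E14.5 fetal liver. The cause was not tested. Of the levels by class, 25 of 96 moved at Leiden resolution 2 and 15 of 90 with seed 2, and the 12 within-cluster ratios moved at neither. Added after the data were seen, the Csf1r difference at a fixed cluster mix was -0.39 at resolution 2. With at least 2 UMIs for detection, 92 of 110 gene values by pattern moved. In E14.5 periphery the joint cells behind a ratio numbered 3, 8 and 11.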

Other observations

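The 2 mast cell or basophil-like clusters of the periphery differed in receptor genes. Cluster 16, with the mast cell protease genes Cma1 and Tpsb2 among its leading genes, had 50.4 CPM of Kit (34.0 to 72.0) and 5.04 CPM of Csf1r (1.04 to 14.7) at E14.5, at a median depth of 1646 UMIs. Cluster 15, led by Mcpt8, had 10.9 CPM of Kit (5.23 to 20.05) and 28.3 CPM of Csf1r (18.5 to 41.5) at E14.5. In E13.5 cluster 15 had 4.89 CPM of Kit and 26.4 CPM of Csf1r. In fetal liver the summed ligand genes stood at 96.9 CPM at E14.5 and 20.99 CPM at E13.5 in cells with Csf1r only, at 35.5 and 30.3 CPM in cells with none of the 3 receptor genes, and at 4.50 and 4.32 CPM in cells with Flt3 only.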
